A study of Mus musculus with 3 samples.

Results

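The cells described here are airway secretory cells rich in Scgb3a1, a small secreted protein of the secretoglobin family, and in Bpifa1, a secreted lipid-binding protein of the airway lining. They were picked from droplet libraries of single mouse lung cells by their counts of unique molecular identifiers (UMIs, each standing for 1 captured RNA molecule). A cell was kept when it had at least 3000 UMIs, at least 500 detected genes and at most 15% mitochondrial UMIs. It was called an airway secretory cell when Scgb3a1 made up at least 1% of its UMIs, when Bpifa1, Bpifb1, Reg3g and Muc5b together gave at least 5 UMIs, and when Foxj1, the regulator of motile cilia, gave 0. The rule picked 103 of 8781 cells: 101 of 2825 in the Club-Tracer library, 2 of 1107 in the BASC-Tracer library and 0 of 4849 in the AT2-Tracer library.

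The lungs came from mice of the genotype Scgb1a1-CreER;Sftpc-DreER;R26-TLR, 4 weeks after bleomycin, a drug that injures the lung epithelium. Every group carried the same alleles and the same injury, and the groups differed in the fluorescent colour for which cells were sorted. The Club-Tracer library held tdTomato cells, marked through the Scgb1a1 promoter, which is active in club cells. The BASC-Tracer library held cells with both colours, and the AT2-Tracer library held ZsGreen cells, marked through the Sftpc promoter of alveolar type 2 (AT2) cells. There was 1 library of each kind, the sources at hand do not say how many animals it pooled, and the label reports the tissue as whole lung. All values below are therefore values of single libraries with no replicate check, no test between classes was possible, and intervals cover counting error only, within the cells that happened to be captured.

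Airway secretory cells line the conducting airways between ciliated cells and release the proteins and mucins of the surface liquid. In the mouse, club cells rich in Scgb1a1 fill the small airways, whereas secretory cells with Scgb3a1, Bpifa1 and Muc5b are known mainly from the trachea, the large bronchi and the submucosal glands. Bpifa1 and Bpifb1 belong to a family related to bactericidal permeability-increasing protein, Reg3g is a lectin that acts on gram-positive bacteria, and Muc5b is the gel-forming mucin required for mucociliary clearance. The position of a cell along the airway was not recorded in the labels, so the name upper airway was not checked by anything other than RNA.

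The 5 genes that chose the cells are spread over the genome (build GRCm38, the same as mm10). Scgb3a1 lies on chromosome 11 (49663610 to 49665118, forward strand), Bpifa1 and Bpifb1 lie close together on chromosome 2 (154142880 to 154149219 and 154190818 to 154220369, both forward), Reg3g lies on chromosome 6 (78466269 to 78468872, reverse) and Muc5b on chromosome 7 (141839070 to 141873084, forward). The promoters of those with an entry in RefSeq (GRCm38.p6) are printed because these are the genes that chose the cells. Each window runs from 250 bases before the start site to 50 bases after it, 5′ to 3′ on the strand of the gene, at chr11:49663345-49663644 (forward), chr2:154142630-154142929 (forward), chr2:154190568-154190867 (forward) and chr6:78468825-78469124 (reverse) in the order below. Capitals mark matches to a forkhead-type word (TGTTTAC and its close variants TGTTTGC and also TATTTAC together with TATTTGC, on either strand) or to a TATA box (TATAAA, on the strand of the gene only), and no match of one overlaps a match of the other.
Scgb3a1: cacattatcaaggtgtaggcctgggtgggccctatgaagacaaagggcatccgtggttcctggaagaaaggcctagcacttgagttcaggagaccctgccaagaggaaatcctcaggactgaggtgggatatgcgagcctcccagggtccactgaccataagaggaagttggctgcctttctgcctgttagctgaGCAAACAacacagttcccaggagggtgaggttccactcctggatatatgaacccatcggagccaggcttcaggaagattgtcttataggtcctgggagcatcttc
Bpifa1: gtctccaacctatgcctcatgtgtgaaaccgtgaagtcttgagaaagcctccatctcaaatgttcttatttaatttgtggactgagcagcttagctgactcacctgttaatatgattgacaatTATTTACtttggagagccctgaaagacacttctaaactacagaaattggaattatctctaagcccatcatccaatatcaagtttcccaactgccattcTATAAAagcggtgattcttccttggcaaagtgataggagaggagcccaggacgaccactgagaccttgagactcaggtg
Bpifb1: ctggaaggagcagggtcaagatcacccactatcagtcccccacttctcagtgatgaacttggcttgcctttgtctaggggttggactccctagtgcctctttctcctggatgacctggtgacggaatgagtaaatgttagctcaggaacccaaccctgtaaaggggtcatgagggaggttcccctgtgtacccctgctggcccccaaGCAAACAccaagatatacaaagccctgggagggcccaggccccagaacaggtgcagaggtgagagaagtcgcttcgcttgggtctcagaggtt
Reg3g: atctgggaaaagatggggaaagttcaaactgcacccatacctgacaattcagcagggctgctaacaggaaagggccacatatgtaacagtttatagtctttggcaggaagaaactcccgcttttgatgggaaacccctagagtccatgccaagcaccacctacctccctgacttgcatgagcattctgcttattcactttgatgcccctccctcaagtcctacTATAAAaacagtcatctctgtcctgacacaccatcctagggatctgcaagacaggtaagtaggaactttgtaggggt
With positions counted from the start site and negative before it, a forkhead-type word began at -55 in Scgb3a1, at -127 in Bpifa1 and at -43 in Bpifb1, and none was found in the window of Reg3g. RefSeq holds a further start of Bpifb1 downstream (window chr2:154200130-154200429, forward), not printed, with 2 overlapping forkhead-type words and no TATA box. A TATA box began at -29 in Bpifa1 and at -27 in Reg3g. Over all 32851 promoter windows of the same length, 13.5% held a forkhead-type word and 8.32% a TATA box. These words were chosen with the sequences in view, and a match is a run of letters, not a shown binding site.

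The libraries held 62570890 UMIs (Club-Tracer), 29013077 (BASC-Tracer) and 72256580 (AT2-Tracer) before filtering. The 101 airway secretory cells of the Club-Tracer library had 3642 to 63342 UMIs with a median of 31371, against a median of 26640 in 757 club cells and 11899 in 78 basal cells. Club cells were those with Scgb1a1 at 25% of UMIs or more and Scgb3a1 under 1%. Basal cells, the stem cells of the airway, were those with at least 5 UMIs of Krt5 plus Trp63. As a measure of free RNA, 16 endothelial or leukocyte barcodes without Epcam were summed (background barcodes, median 3502 UMIs). For a gene that these cells express themselves, their level is not a measure of free RNA. Scrublet's automatic threshold marked 0.0300% of Club-Tracer barcodes and so did not work there, and among its 89 highest-scoring barcodes were 2 airway secretory cells. Between the libraries, 73 barcodes were shared by Club-Tracer and BASC-Tracer, 122 by Club-Tracer and AT2-Tracer and 94 by BASC-Tracer and AT2-Tracer, and 3 Club-Tracer airway secretory cells shared theirs with a barcode of another library that failed the cell filters. Levels below are in CPM, the UMIs of a gene summed over a class and scaled in the usual way by all UMIs of the class, and 2-fold is judged on log2((CPM + 5)/(CPM + 5)), which understates differences of low genes.

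Airway secretory cells were 3.58% of the Club-Tracer cells (exact Clopper-Pearson 95% interval 2.92 to 4.33), 0.181% of the BASC-Tracer cells (0.0219 to 0.651) and 0% of the 4849 AT2-Tracer cells (0 to 0.0760). The sorts were for different colours and their depths differed, with medians of 17707, 21156 and 11593 UMIs per cell. In the Club-Tracer library 134 cells had Scgb3a1 at 1% or more, of which 18 were left out for too few UMIs of the 4 defence genes, 11 for Foxj1 and 4 for both. The cell nearest inside the Scgb3a1 threshold had 1.01% and the nearest outside 0.991%. Of the 101 cells, 9 lay between 1% and 1.5% Scgb3a1, and 12 further cells that met the other conditions lay between 0.5% and 1%. For the 4 defence genes the nearest cells had 5 UMIs inside and 4 outside, the median was 83, and 10 cells had 5 to 9. Another 100 cells had at least 5 UMIs of the defence genes but Scgb3a1 under 1%.

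The levels of the 5 genes that chose the cells are a description of that choice. Scgb3a1 ranged over 107, 1707 and 10220 UMIs per cell (lowest, median and highest) in airway secretory cells, against 0, 1 and 475 in club cells. Summed, it stood at 80279 CPM in airway secretory cells, 283 in club cells, 275 in basal cells and 92.5 in background barcodes. The airway secretory cells held 83.5% of all Scgb3a1 UMIs of the filtered Club-Tracer cells. Scgb3a1 was thus present in every one of these cells at 1% of UMIs or more, as the rule required.

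The 4 defence genes were far more uneven. Bpifa1 stood at 11425 CPM in airway secretory cells, 147 in club cells, 128 in basal cells and 0 in background barcodes. A single club cell held 2000 of the 2941 Bpifa1 UMIs of the club cells, whose median was 0. In airway secretory cells its counts ran from 0 over a median of 22 to 4703, with at least 1 UMI in 80 cells and at least 5 in 71. Bpifb1 stood at 1768 CPM, against 23.6 in club cells and 3.67 in basal cells, with a median of 6 UMIs and a highest count of 452. Reg3g stood at 4523 CPM, against 13.8 in club cells and 2.75 in basal cells, but its median was 0 UMIs, its highest count was 2850 and 41 of 101 cells had any. Muc5b stood at 833 CPM, against 19.2 in club cells and 0 in basal cells, with a median of 3 UMIs and a highest count of 803. The 10 richest cells held 81.3% of the Reg3g UMIs, 71.5% of Muc5b, 64.5% of Bpifa1 and 61.6% of Bpifb1, against 30.9% for Scgb3a1. Thinned to 1500 UMIs per cell, at least 1 UMI was seen for Bpifa1 in 68.3% of airway secretory cells, 2.91% of club cells, 5.13% of basal cells and 0 of 14 background barcodes.

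**Figure D1:**
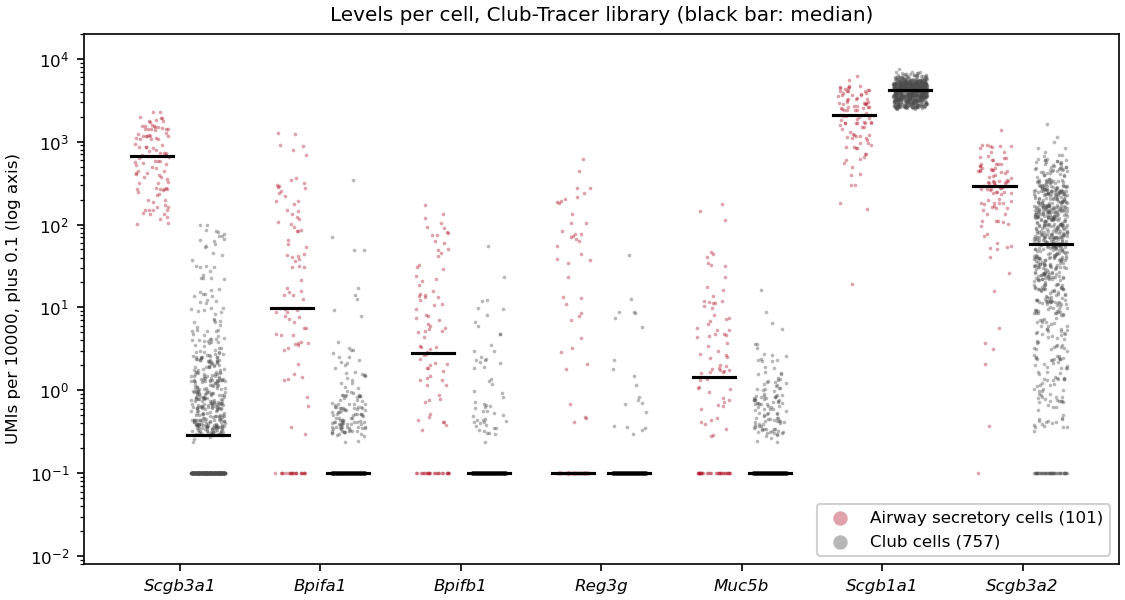
UMIs per 10000 plus 0.1 (log axis) in each airway secretory cell (red, 101 cells) and each club cell (grey, 757 cells) of the Club-Tracer library, with the median as a black bar and cells without a UMI at 0.1. Scgb3a1 lay at 1% of UMIs or more in every red cell by the rule, Reg3g had a median of 0 in both classes, and Scgb3a2 had a higher median in airway secretory cells.

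All 4 defence RNAs reached 5 UMIs in 17 of the 101 cells. A cell below that level is not shown to lack the RNA, since Bpifb1 and Muc5b gave few UMIs in most cells. At this level, 39 cells had 1 of the 4 genes, 27 had 2, 16 had 3 and 17 had 4, while 2 cells reached the rule only through the sum. Bpifa1 alone was the commonest combination, in 24 cells, followed by all 4 genes in 17 and by Bpifa1 with Bpifb1 in 13. Muc5b alone reached it in 8 cells, and Reg3g alone in 1. Bpifa1 was the most abundant of the 4 in 56 cells, Reg3g in 21, Muc5b in 13 and Bpifb1 in 11. After thinning to 3000 UMIs per cell, Reg3g went with Bpifb1 (Spearman's rho 0.63), Agr2 (0.63), Tff2 (0.58) and Muc5b (0.53) across the 101 cells, whereas Bpifa1 and Reg3g had a rho of -0.01. These rho values describe cells of 1 library that share depth and free RNA and carry no p-value.

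The cells were not free of the club cell secretoglobins. Scgb1a1 (chromosome 19, 9083636 to 9087958, reverse strand), the secretoglobin that defines club cells, made up 0.193%, 20.9% and 62.7% of UMIs per cell (lowest, median and highest) in airway secretory cells. It made up a median of 42.1% and up to 74.4% in club cells, where 25% was required, and 0.0573%, 0.331% and 5.94% in basal cells. Summed, it stood at 224743 CPM in airway secretory cells, 409929 in club cells, 7838 in basal cells and 3783 in background barcodes. Among the 101 cells, 43 had Scgb1a1 at 25% of UMIs or more and so missed the club cell rule through Scgb3a1 alone, and 7 had more Scgb3a1 than Scgb1a1. Scgb3a2, another secretoglobin, which neither rule used, had a median of 800 UMIs (0 to 4103) in airway secretory cells, against 114 (0 to 4752) in club cells and 2.5 in basal cells. It stood at 33373 CPM, against 11793 in club cells, a ratio of 2.83 (95% interval 2.81 to 2.85), and 2397 in basal cells. It reached 1% of UMIs in 83.2% of airway secretory cells, 37.1% of club cells and 8.97% of basal cells. The classes overlapped: the lower quartile of airway secretory cells was 1.58% of UMIs and the upper quartile of club cells 1.60%, and 79 club cells reached the airway secretory median of 2.87%. Scgb1c1, a secretoglobin best known from the nose, was lower, at 164 CPM in airway secretory cells and 368 in club cells.

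**Figure D2:**
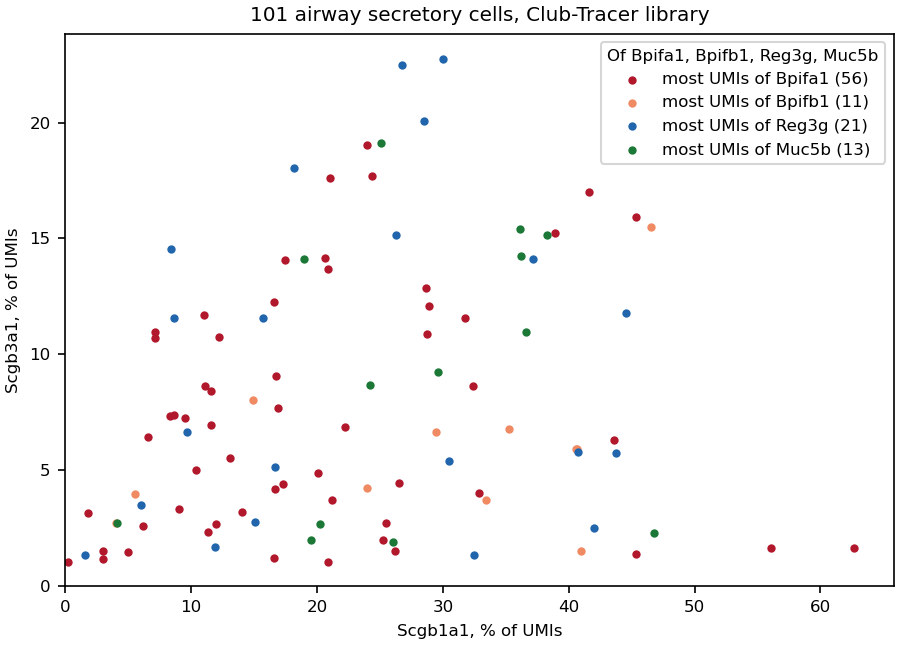
Scgb1a1 (x axis) against Scgb3a1 (y axis), both in % of UMIs, for the 101 airway secretory cells of the Club-Tracer library, coloured by which defence gene gave most UMIs (Bpifa1 in 56, Reg3g in 21, Muc5b in 13, Bpifb1 in 11). Cells led by Muc5b lie mostly at middle and high shares of Scgb1a1, while the other colours mix over its range. No gap separates the 43 cells at 25% or more from the others.

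Against club cells of the same library, the genes farthest higher in the airway secretory cells were Agr2, Tff2 and Itln1, and those farthest lower were Igfbp6, Ager and Pla2g1b. Of 1897 genes at 50 CPM or more in either class, without the 5 rule genes and Scgb1a1, 164 (8.65%) were at least 2-fold apart, 127 (6.69%) higher and 37 (1.95%) lower in airway secretory cells. The median gene lay at a log2 ratio of 0.27, and Scgb1a1 alone made up 22.5% of the UMIs of airway secretory cells and 41.0% of those of club cells. With Scgb1a1 and the rule genes left out of the totals, 122 genes were higher and 91 lower among 2933. Leaving them out added -0.20 to every log2 ratio before the 5 CPM were added to both sides. With the 5 CPM the shift differed by gene. Taking the 58 cells under 25% Scgb1a1 alone gave 351 higher and 57 lower.

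Agr2, an endoplasmic reticulum disulfide isomerase needed for mucin folding, was the gene farthest apart, at 441 CPM (95% Poisson interval 418 to 466) in airway secretory cells, against 1.00 (0.609 to 1.54) in club cells, a 442-fold ratio (285 to 726). Its counts ran from 0 over a median of 0 to 480 in airway secretory cells, against at most 2 in any club cell. Tff2, a trefoil peptide secreted with mucus, stood at 237 CPM, against 1.10 in club cells, and Itln1, a lectin for microbial sugars, at 176 CPM, against 1.35 in club cells. The highest count of Tff2 was 205 UMIs in airway secretory cells, against 6 in club cells, and that of Itln1 was 105, against 3. All 3 were carried by a minority: 16, 12 and 24 of the 101 cells had 5 UMIs or more, and 10 cells held 91.2% of Agr2 and 95.2% of Tff2.

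Gp2, a surface receptor for fimbriated bacteria, stood at 234 CPM in airway secretory cells and 4.44 in club cells, 52.6-fold apart (42.2 to 66.4). Ltf, the iron-binding lactoferrin, stood at 911 CPM, against 34.7 in club cells, 26.2-fold apart (24.1 to 28.5), with 39 airway secretory cells at 5 UMIs or more and up to 466 in a single cell. Ly6d, a surface protein of squamous and stratified epithelia, stood at 552 CPM, against 15.4 in club cells, and Msln, a surface protein best known from mesothelium, at 154 CPM, against 1.10. The kallikrein-related proteases Klk10 and Klk13 stood at 310 and 174 CPM in airway secretory cells, against 8.93 and 12.3 in club cells. S100a6, a calcium-binding protein, stood at 1675 CPM, against 123 in club cells and 1110 in background barcodes. Atp6v1b1, a subunit of the proton pump, was at 82.9 CPM against 2.44, and Fxyd3, a regulator of the sodium pump, at 223 CPM against 15.8 in club cells. Fxyd3 was the most widespread of these 12 genes, with at least 1 UMI in 86 of 101 cells, and Tff2 the least, in 25. In the 33 airway secretory cells richest in Scgb1a1, Klk10 stood at 7.21 CPM, Klk13 at 19.6 and Ly6d at 19.6, near club cells. Gp2, Ltf, Msln, S100a6, Atp6v1b1 and Fxyd3 stood at 194, 300, 30.9, 251, 40.2 and 107 CPM there, above club cells.

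On the other side, Igfbp6, a binding protein of insulin-like growth factors, stood at 2.33 CPM (7 UMIs) in airway secretory cells, against 65.7 in club cells. It was 28.2-fold lower, and no airway secretory cell had more than 4 UMIs. Ager, a receptor abundant on alveolar type 1 (AT1) cells, stood at 118 CPM, against 537 in club cells, with medians of 0 and 7 UMIs per cell. Pla2g1b, a secreted phospholipase, stood at 24.97 CPM, against 115 in club cells. Serpinf1 was at 24.0 against 108 CPM, Tspan11 at 17.3 against 72.2 and Palmd at 15.98 against 60.8 in club cells. Chil1, a chitinase-like protein, stood at 172 CPM, against 559 in club cells, and Saa3, an acute phase protein, at 29.3, against 104. Of the 88 Saa3 UMIs, 87 came from 4 cells rich in Scgb1a1, and its log2 ratio ran between -4.31 and -1.33 over the alternative settings. The others of the 12 lowest genes were S100g, Scd1, Sfta2 and Ly6c1, between 3.12-fold and 3.63-fold lower in airway secretory cells. For Scd1 the log2 ratio was -0.57, under 2-fold, against club cells at 35% Scgb1a1 or more. Ager, Chil1 and Sfta2 are also made by alveolar cells, and in airway secretory cells 10 cells held 87.5% of the Ager UMIs.

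**Figure D3:**
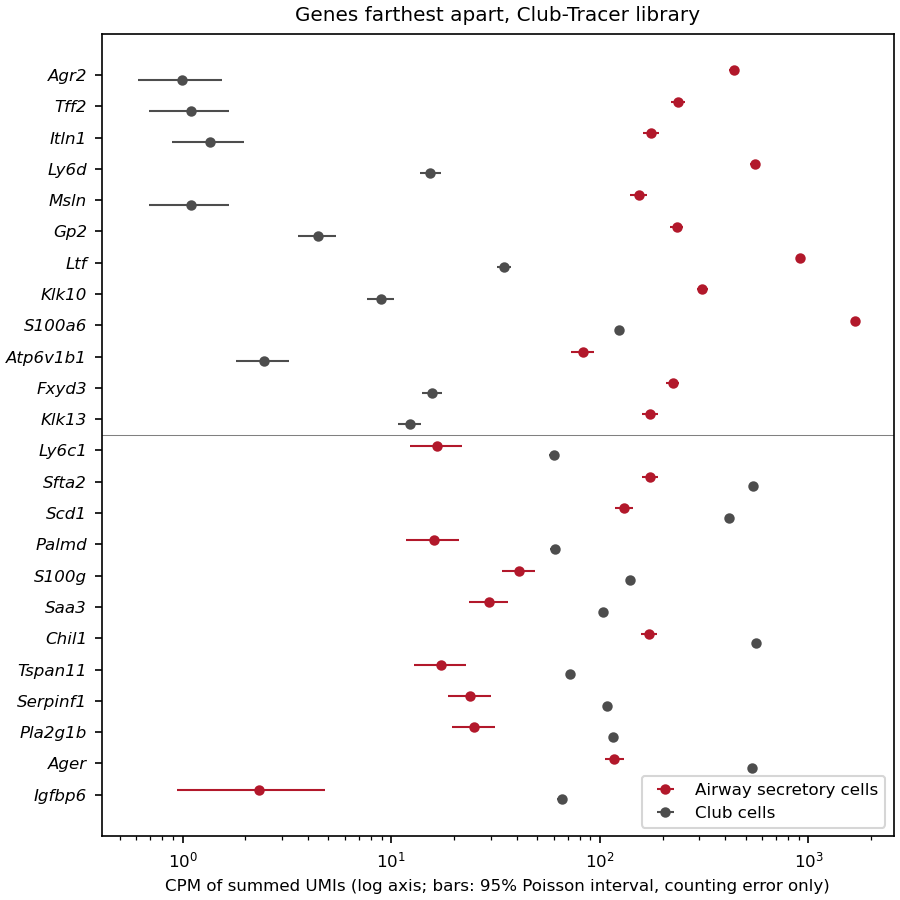
Summed levels in CPM (log axis) of the 12 genes farthest higher (top) and the 12 farthest lower (bottom) in airway secretory cells (red) against club cells (grey) of the Club-Tracer library. Bars are 95% Poisson intervals for counting error only. Agr2, Tff2, Itln1 and Msln lay near 1 CPM in club cells, and Igfbp6 lay at 2.33 CPM in airway secretory cells.

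Gene lists drawn up for airway and injured lung were compared in the same way, and over all their genes 28 of 140 at 50 CPM or more were higher and 11 lower. The goblet and mucous list had 3 of 4 genes higher, namely Agr2, Tff2 and Itln1, and Creb3l1, a secretory pathway factor, at 55.3 CPM against 41.1 in club cells. Its best known members were scarce, with the gel-forming mucin Muc5ac at 22.0 CPM against 3.99 in club cells and the goblet cell regulator Spdef at 9.32 against 2.54, both named after their values were seen. Of 9 antimicrobial genes 3 were higher and 1 lower, beside 6.69% and 1.95% of all genes tested. Pglyrp1, which binds peptidoglycan, stood at 477 CPM, against 50.7 in club cells, and was spread over 91 cells. Lyz1, a lysozyme, stood at 715 CPM, against 121 in club cells, but a single cell held 83.7% of its UMIs. Lcn2, which binds bacterial iron carriers, was at 653 CPM against 971 in club cells. Wfdc2, a protease inhibitor, was at 7845 CPM against 7240, a log2 ratio of 0.12 that turned to -0.08 with Scgb1a1 and the rule genes out of the totals. The antimicrobial list was therefore split among its genes, with a median log2 ratio of 0.36 beside 0.27 for all genes tested.

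Of 14 club cell genes besides Scgb1a1, 3 were higher, 1 was lower and 10 lay within 2-fold, beside 8.65% apart over all genes tested. Upk3a, a uroplakin of a rare club cell subset, stood at 188 CPM, against 24.9 in club cells, but 10 cells held 97.5% of it. Chad, a matrix protein, stood at 193 CPM against 51.2, and Hp, the haemoglobin-binding protein haptoglobin, at 4853 against 10532 CPM in club cells. Cckar, the cholecystokinin receptor, was at 98.2 CPM against 180, and Cyp2f2, the cytochrome P450 typical of mouse club cells, at 4227 against 7095. Of 18 genes of xenobiotic metabolism 2 were higher and 2 lower. Gsto1, a glutathione transferase, stood at 780 CPM against 157, and Cyp2a5 at 88.9 against 9.13, of which 10 cells held 97.4%. Aldh3a1, an aldehyde dehydrogenase, was at 241 CPM against 127. Nqo1, a quinone reductase, stood at 14.0 CPM against 52.0 in club cells, and Cyp2b10 at 56.6 against 146.

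Of 10 genes of transitional cells, the intermediates seen after lung injury, 6 were higher and 0 lower than in club cells. Their median log2 ratio was 1.29. Over all genes tested 6.69% were higher and 1.95% lower, with a median of 0.27. Of 5 keratins, read against the same shares, 4 were higher. Krt8 and Krt19 count in both of these lists, so the lists are not separate results. Krt8 stood at 1415 CPM in airway secretory cells, against 502 in club cells, Krt19 at 995 against 361, Krt7 at 512 against 201 and Krt18 at 1633 against 794. Krt23 was at 52.3 CPM against 33.5 in club cells. Of 9 genes of squamous-type airway cells (the hillock and squamous list) 3 reached 50 CPM. Of these, 3 were higher and 0 lower, with a median log2 ratio of 2.17, read against the same shares. Lgals3, a galectin, was at 548 CPM against 97.5 in club cells, and Anxa1, an annexin, at 906 against 197. The third, Sfn, a 14-3-3 protein of stratified epithelium, was at 255 CPM against 85.5. Background barcodes held 1542 CPM of Lgals3, 360 of Anxa1 and 0 of Sfn, levels that may include their own expression. Cdkn1a, a cell cycle inhibitor and p53 target, was at 142 CPM against 194 in club cells, Nupr1 at 1095 against 939 and Clu at 477 against 318. The tight junction gene Cldn4 stood at 401 CPM against 153, and Epcam at 330 against 159, while Cldn10 was at 234 against 355 in club cells.

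The lists that follow are likewise read beside 6.69% higher and 1.95% lower over all genes tested. Of 4 interferon-responsive genes 2 were higher: Ifitm1 stood at 145 CPM, against 16.5 in club cells, and Ifitm3 at 567, against 172. Ifi27 was at 88.9 CPM against 50.8 and Irf1 at 53.6 against 41.7. Of 8 ion and water transport genes 2 were higher and 1 lower. The water channel Aqp4 stood at 98.2 CPM against 21.3 and the chloride importer Slc12a2 at 167 against 77.2, whereas Scnn1b, a subunit of the epithelial sodium channel, stood at 106 against 252 in club cells. The other subunits were at 32.3 CPM against 63.6 (Scnn1g) and 159 against 191 (Scnn1a). Among 11 airway transcription factors Xbp1, which drives secretory capacity, was higher, at 234 CPM against 110. Elf3 was at 141 CPM against 68.7, Klf5 at 210 against 110, and the lung factor Nkx2-1 at 64.6 against 74.2 in club cells. Of 14 genes of the secretory pathway and unfolded protein response, 0 passed 2-fold either way, with a median log2 ratio of 0.60. Pdia4 was at 72.6 CPM against 33.9, Calr at 182 against 92.5 and Dnajb9 at 54.3 against 63.2. Slc12a2, Xbp1, Krt18, Epcam and the ferroxidase Cp (401 CPM against 191) lay under 2-fold with Scgb1a1 and the rule genes out of the totals.

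Of 7 genes of the IL-17 and NF-kB response 0 were 2-fold apart, beside 8.65% of all genes tested. Pigr, the transporter of secretory IgA, was at 199 CPM against 98.7 in club cells, and the chemokines Cxcl1 and Cxcl2 at 67.3 against 102 and 43.3 against 66.4. Of 2 type 2 genes 1 was lower: Retnla, a resistin-like protein, was at 7635 CPM against 14371, and Chia1, the acidic chitinase, stood at 193 against 520, with 10 cells holding 98.97% of it. Of 4 chemokines 0 were higher and 1 was lower: Cxcl17, a mucosal chemokine, was at 625 CPM against 453, and Cxcl15, a chemokine typical of mouse lung epithelium, stood at 1199 against 3541. Of 10 immediate early and heat shock genes, which respond to cell dissociation, 0 were 2-fold apart. Nr4a1 was at 309 CPM against 153 in club cells, and Dusp1 at 289 against 444. Of 7 acute phase and complement genes 1 was higher (Cp) and 2 were lower (Hp and Saa3), of 4 AT1 genes 0 were higher and 1 was lower (Ager), and of 3 p53 targets 0 were 2-fold apart. The membrane mucin Muc1 was at 297 CPM against 408 in club cells, and Cd74, the chain that guides MHC class II, at 167 against 304 with 12663 in background barcodes.

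Markers of other cell types were near 0 for most lists. Of 8 basal genes none reached 50 CPM in airway secretory or club cells, Krt14 was at 0 UMIs, and 4 of the 101 cells had 5 UMIs or more of Krt5, Krt14 and Krt17 together. Of 10 submucosal gland genes 6 were at 0, among them Lpo, Pip and Sox10, and the summed list had a median of 0 and a highest value of 2.75 UMIs per 10000, against 0 and 0.739 in club cells. The ionocyte factors Foxi1 and Ascl3 and the fibroblast collagens Col1a1, Col1a2 and Col3a1 were at 0, as was the endothelial Cdh5, and the leukocyte gene Ptprc gave 1 UMI in each of 3 cells. A single cell had 20 or more UMIs of the tuft list. Foxj1 was at 0 by the rule, a condition not set for club cells, so the ciliated list is not compared on equal terms. It summed to a median of 1.34 and a highest value of 12.4 UMIs per 10000, against 2.27 and 78.8 in club cells. Of 8 AT2 genes 0 were higher and 2 lower, Cxcl15 and Napsa (122 CPM against 314 in club cells). Sftpc, the surfactant protein that defines AT2 cells, stood at 1259 CPM, below the 1902 in background barcodes, and was at 1885 in club cells. It was over 100 UMIs in 4 airway secretory cells and under 10 in 97, and 10 cells held 96.3% of it.

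Cells with cell cycle RNA were present. Mki67 plus Top2a reached 5 UMIs in 7 airway secretory cells (6.93%), 11 club cells (1.45%) and 2 basal cells (2.56%). Ube2c, which acts in mitotic exit, stood at 60.3 CPM in airway secretory cells and 12.1 in club cells, with 11 airway secretory cells carrying any. Depth differed between the classes, and its part in these counts was not tested.

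The comparison with basal cells, which carry the tdTomato mark in this library as well, covered 3106 genes. Of these, 940 (30.3%) were at least 2-fold apart, 90 (2.9%) higher and 850 (27.4%) lower in airway secretory cells, with a median log2 ratio of -0.71. Leaving Scgb1a1 and the rule genes out of the totals gave 208 genes higher and 303 lower. It added 0.55 to every log2 ratio before the 5 CPM were added to both sides, and with them the shift differed by gene. Retnla was the gene farthest higher, at 7635 CPM, against 70.6 in basal cells and 71.9 in background barcodes. Agr2 stood at 441 CPM against 0.917 and Klk10 at 310 against 1.83 in basal cells. Tff2, Gp2 and Chad were at 0 in basal cells and at least 86.3-fold, 85.0-fold and 70.3-fold higher in airway secretory cells, counting 3 UMIs over the basal group as the floor. In the other direction, Krt14 was at 0 CPM against 1526 in basal cells, Krt5 at 15.6 against 1904, Krt17 at 18.6 against 812, the water channel Aqp3 at 15.3 against 770, Apoe at 4.33 against 417 and Wnt4 at 4.66 against 313. All 7 basal genes at 50 CPM or more were lower. Krt5 plus Trp63 chose the basal cells, so the levels of these genes describe that choice. Ly6d and S100a6, which were higher than in club cells, were lower than in basal cells, at 552 CPM against 1562 and at 1675 against 5520. Fxyd3 was likewise at 223 CPM against 1030 in basal cells, and Sfn at 255 against 1487. Against basal cells, 2 of 10 transitional genes were higher and 3 lower, with a median log2 ratio of -0.42. Of 8 keratins 1 was higher and 4 were lower, and of 6 hillock and squamous genes 0 were higher and 3 lower. These counts are read beside 2.9% higher and 27.4% lower over all genes tested against basal cells.

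The airway secretory cells varied along Scgb1a1. Ordered by their Scgb1a1 share they were divided into groups of 34, 34 and 33 cells with median shares of 8.64%, 20.9% and 38.3% (low, middle and high). Their median depths were 34177.5, 29122.5 and 31371 UMIs. Scgb3a1 stood at 53699, 98116 and 89588 CPM in the low, middle and high groups, and Scgb3a2 at 31529, 40399 and 27974, so neither followed Scgb1a1 in one direction. Bpifa1 stood at 17431, 12640 and 3846 CPM, Reg3g at 7979, 4061 and 1372, Bpifb1 at 2402, 2044 and 815 and Muc5b at 1305, 810 and 362. These sums declined from the low to the high group, but the counts per cell did not all follow. Any Reg3g was seen in 12, 11 and 18 cells. Medians per cell were 6, 5 and 7 UMIs for Bpifb1 and 1, 7 and 4 for Muc5b. The median of Bpifa1 fell, at 56.5, 44.5 and 7 UMIs. The genes described next were chosen after their values were seen. Klk10 stood at 642, 266 and 7.21 CPM, Ly6d at 1015, 597 and 19.6, Krt7 at 1078, 350 and 86.5 and Msln at 276, 148 and 30.9. In the high group Krt7 lay below its club cell level, Klk10 and Ly6d lay near theirs and Msln lay above. Mki67 stood at 96.1, 1.97 and 0 CPM. In the opposite direction, Retnla stood at 1849, 7227 and 14141 CPM, Scgb1c1 at 23.5, 71.0 and 408, Cyp2f2 at 2111, 4257 and 6418 and Chil1 at 54.9, 153 and 315. Each of these 9 genes thus moved in one direction over the groups, and they are single genes, not a test of any gene group. After the same thinning to 3000 UMIs, Scgb1a1 had a rho of -0.54 with Ly6d, -0.38 with Klk10 and 0.31 with Cyp2f2. Since CPM is a share of all UMIs, a lower Scgb1a1 share raises the CPM of other genes by itself, and this touches all of the declines above.

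**Figure D4:**
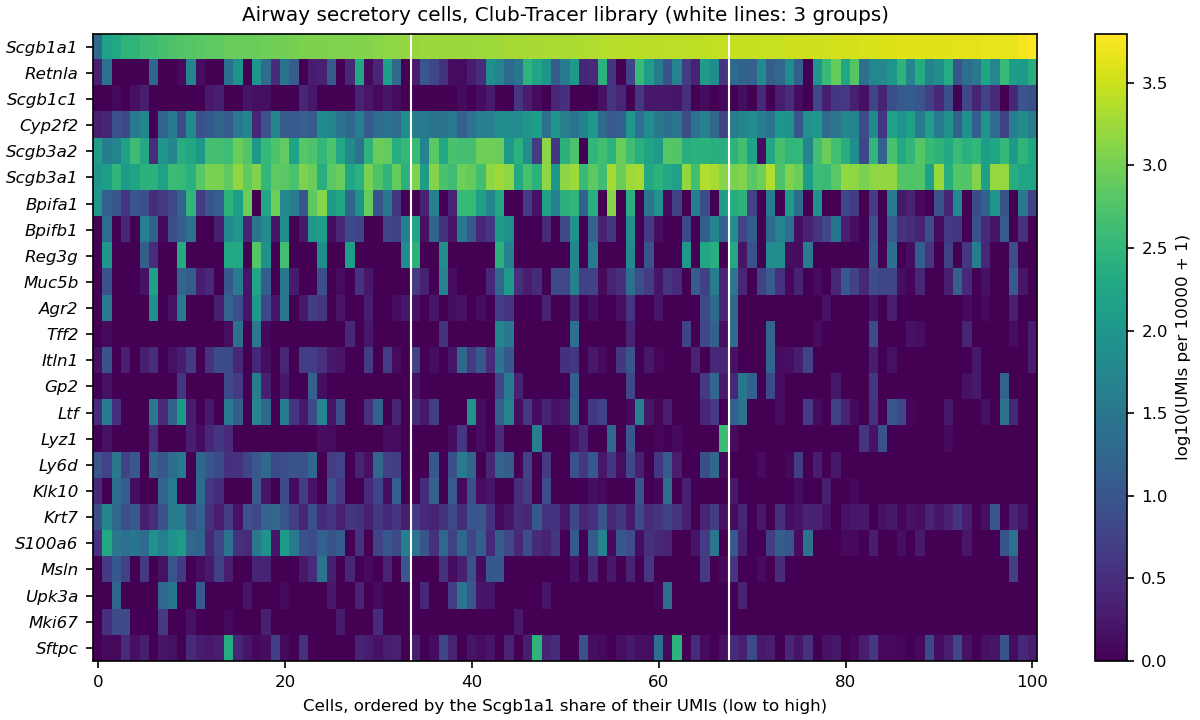
Each column is 1 of the 101 airway secretory cells of the Club-Tracer library, ordered by Scgb1a1 share from low to high, each row is a gene, and colour gives log10(UMIs per 10000 + 1). White lines separate the groups of 34, 34 and 33 cells. Klk10, Ly6d, Krt7 and S100a6 lie mostly on the left, Retnla and Scgb1c1 on the right, and Agr2, Reg3g and Muc5b coincide in a small number of columns.

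A small set of cells carried the mucous genes together. Cells with 5 UMIs or more of Agr2, a threshold set after its values were seen, numbered 16, against 85 others. Their median depth was 38377.5 UMIs, against 29128 in the others, and 0 of the 16 were among the cells marked as doublets. At the same level of 5 UMIs, 15 of the 16 had Muc5b, 14 had Ltf, 13 had Reg3g, 13 had Bpifa1, 11 had Gp2 and 10 had Itln1. Over all 101 cells, Muc5b reached it in 47, Ltf in 39, Reg3g in 35, Bpifa1 in 71, Gp2 in 18 and Itln1 in 24. All 12 cells with Tff2 had both Muc5b and Reg3g, and 7 of them had Agr2. Reg3g stood at 19507 CPM in the 16 cells and 798 in the others, Muc5b at 2986 and 298, Bpifb1 at 5851 and 754 and Ltf at 2689 and 468. A single cell gave 2850 of the 11666 Reg3g UMIs and 803 of the 1786 Muc5b UMIs of the 16 cells. Their medians were 530 UMIs of Reg3g and 66 of Muc5b, against 0 and 2 in the others. Tff2 stood at 953 and 59.4 CPM, Gp2 at 729 and 111, Itln1 at 446 and 109, and Clca1, a secreted protein of goblet cells, gave 54 UMIs in 3 of the 16 cells and 1 UMI in the others. Bpifa1 differed less, at 20237 and 9235 CPM, and Scgb3a1 stood at 105855 and 73921. Upk3a stood at 1.67 CPM in the 16 cells against 235 in the others. It gave any UMI in only 18 of those 85 cells, with a median of 0 in both sets. Scgb1c1 stood at 15.05 CPM in the 16 cells against 201 in the others. The 16 cells were chosen from these same counts, so the values describe them and support nothing further.

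**Figure D5:**
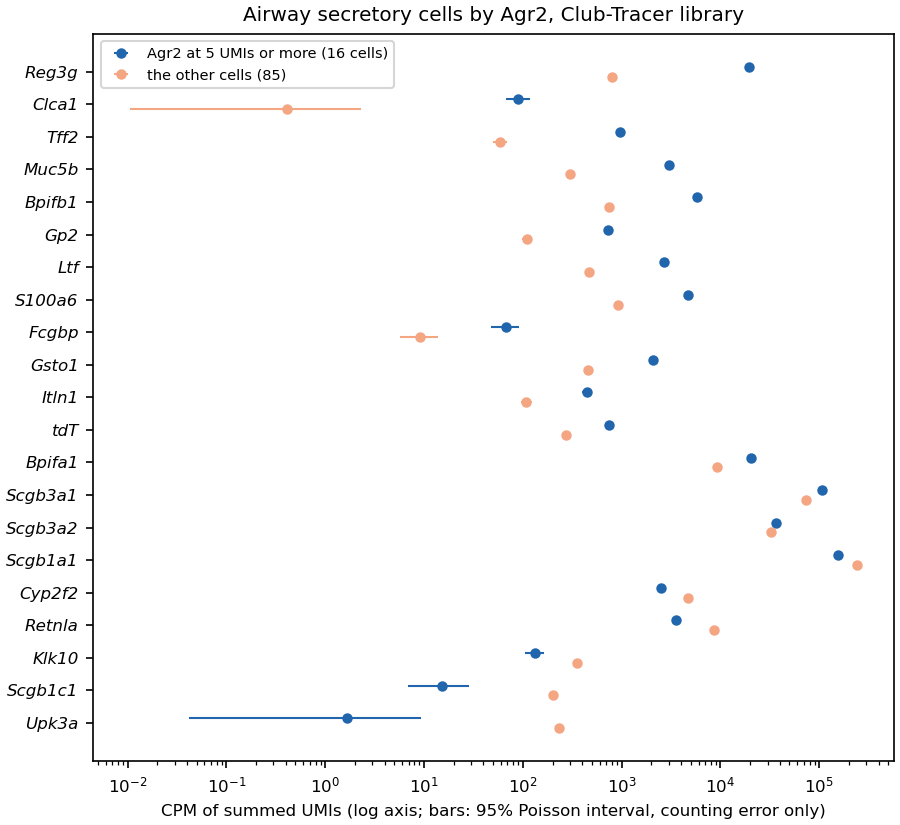
Summed levels in CPM (log axis) in the 16 airway secretory cells with 5 UMIs or more of Agr2 (blue) and the other 85 (orange), with 95% Poisson intervals for counting error only. Reg3g, Tff2, Muc5b and Bpifb1 lie far to the right in the 16 cells, Scgb3a2 lies close in both, and Upk3a, Scgb1c1 and Retnla lie to the left.

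The red lineage mark was found in the airway secretory cells of the red-sorted library. The tdT transcript stood at 368 CPM (347 to 391) in airway secretory cells, 256 (249 to 263) in club cells, 563 (519 to 609) in basal cells and 20.6 (2.49 to 74.3) in background barcodes. With each cell thinned to 1500 UMIs, at least 1 tdT UMI was seen in 32.7% of airway secretory cells (23.7 to 42.7), 23.4% of club cells (20.4 to 26.6) and 50% of basal cells (38.5 to 61.5), against 0 of 14 background barcodes. Unthinned, the shares were 78.2%, 70.5% and 87.2%. Within the airway secretory cells tdT stood at 661, 225 and 210 CPM in the low, middle and high Scgb1a1 groups. The green ZsGFP transcript stood at 4.33 CPM in airway secretory cells, 11.2 in club cells, 13.8 in basal cells and 20.6 in background barcodes, and no airway secretory cell had more than 1 UMI of it.

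The BASC-Tracer library held 2 cells that met the rule, and they differed from each other. The first had 56236 UMIs, with 6927 of Scgb3a1, 5790 of Scgb1a1, 37 of Muc5b, 12 of Agr2, 12 of Tff2, 26 of tdT and 1 of ZsGFP. It shared its barcode with a Club-Tracer barcode of 524 UMIs, and without shared barcodes the library held 1 such cell. The second had 29872 UMIs, with 1712 of Scgb3a1, 14972 of Scgb1a1, 42 of Bpifb1, 11 of Reg3g, 21 of tdT and 64 of ZsGFP. Bpifa1 was at 0 in both. Only the second thus held both marks at levels above the background barcodes of that library, where tdT was at 1.13 CPM and ZsGFP at 19.2 CPM. Scgb3a1 in club cells came to 283 CPM (Club-Tracer, 757 cells), 71.5 CPM (BASC-Tracer, 118 cells) and 44.5 CPM (AT2-Tracer, 6 cells). The AT2-Tracer value rests on 7 UMIs (17.9 to 91.6 CPM), and the medians per club cell were 1, 0 and 0 UMIs. Background barcodes of the same libraries stood at 92.5, 5.64 and 1.39 CPM.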

How the data were processed

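The data were single-cell 5′ gene expression libraries (v2 chemistry) of sorted cells from whole mouse lung, per the labels' protocols. The deposited matrices hold UMI counts, whole numbers per gene and barcode with no normalization, for 32287 features including 2 reporter transcripts, per the file headers. They were made with Cell Ranger 6.1.1 on mm10, per the submitters' processing notes; no source at hand names the annotation release. Coordinates come from GENCODE and RefSeq annotations of GRCm38. From the counts, cells were filtered and classed as given above. UMIs were summed per class and expressed as CPM with exact Poisson intervals, ratios with exact conditional intervals and shares with Clopper-Pearson intervals, all at 95%. A count of 0 was taken to allow 3. Intervals leave out variation between cells and animals. Genes were compared at 50 CPM or more in either class, as apart at 2-fold or more, with a pseudocount of 5 CPM. Depth was 62570890, 29013077 and 72256580 UMIs (Club-Tracer, then BASC-Tracer, then AT2-Tracer). The members and the 37 gene lists (382 genes, 380 found) were chosen with earlier results of these data known. Genes named were the rule genes, Scgb1a1, Scgb3a2, Sftpc and the reporters, the 12 farthest on each side against club cells and 6 against basal cells among genes at 50 CPM and 30 UMIs or more in the higher class, and up to 6 of each list (3 at each end). The ranking skipped mitochondrial, ribosomal protein, predicted (Gm and Rik), immune receptor, haemoglobin and sex-linked genes. Doublets were scored with Scrublet and kept in the values given. The calculation was checked on simulated data. Python 3.11.15, scanpy 1.11.5, numpy 2.4.6, scipy 1.17.1 and pandas 2.3.3 were used.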

Additional observations from a re-analysis of the deposited data

How the results depend on the processing

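The results were recomputed under 17 settings chosen with the design and 2 added after the data were seen (shared barcodes left out, and airway secretory cells under 25% Scgb1a1 alone); the same settings for basal cells were added as well. Of 994 recomputed values 849 stayed close to the value given above, 145 moved (88 of them log2 ratios of single named genes) and 0 called values changed direction. Close means within 1.5 times for a count, within 0.25 for a median log2 ratio and, for a named gene, within the width of its 95% counting interval. The log2 ratio of Scd1 was -0.57 against club cells at 35% Scgb1a1, and that of Saa3 was -4.31 with the rule applied after thinning. Applying the rule after thinning to 3000 UMIs gave 1 BASC-Tracer cell and 193 genes higher and 57 lower against club cells, and leaving out shared barcodes gave 1 BASC-Tracer cell. A gene minimum of 20 CPM gave 239 higher and 71 lower against club cells and 176 higher and 1498 lower against basal cells, with more genes tested. A minimum of 100 CPM, with fewer genes tested, gave 72 higher against club cells and 437 lower against basal cells. CPM without Scgb1a1 and the rule genes gave 91 lower against club cells, 208 higher and 303 lower against basal cells, and 18 list genes lower; a pseudocount of 20 CPM gave 525 lower against basal cells. Airway secretory cells under 25% Scgb1a1 gave 351 higher and 57 lower against club cells, 492 lower against basal cells, and 51 list genes higher and 18 lower. The causes were not tested. Club cells at 15% or 35% Scgb1a1 gave 66.0% and 85.2% higher among genes apart, beside 77.4%. No paired analysis was possible because each lineage has 1 library and no test was made. With 101 cells, genes carried by few cells rest on those cells, and the 2 BASC-Tracer cells allow no comparison of libraries.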
